A study of Mus musculus with 6 samples.

Results

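The nuclear genes for respiratory complexes II, III, IV and V of the mitochondrial inner membrane, with cytochrome c and the assembly factors that carry Cox symbols, were compared between wild-type (WT) and Yme1l-/- mouse embryonic fibroblasts (MEFs). Members were taken by symbol alone (Sdha to Sdhd, all symbols starting with Uqcr, Cyc1, Cycs, Cox followed by a digit, and Atp5), which gave 61 of the 51499 loci in the count table. Of these, 56 were protein-coding genes and 5 were numbered pseudogenes, and 50 had enough fragments to be tested. The gene for subunit 4 isoform 1 of complex IV is not analysed here.

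RNA with poly(A) tails was sequenced from 3 cultures of each genotype. The WT cells carried Yme1l alleles flanked by loxP sites (Yme1l loxP/loxP), and the Yme1l-/- cells had lost them through Cre recombinase. Cells of both genotypes had been immortalized with SV40 and, by the study's account, expanded from single clones, so that a difference between genotypes and a difference between clones cannot be told apart. The labels number the cultures and give no batch, so p-values measure the spread between these cultures, which may be technical. In bulk RNA a lower level can come from fewer cells that express a gene or from less RNA in each cell, and these cannot be told apart.

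Libraries held between 33180867 and 34012520 counted fragments in WT and between 34624075 and 49351107 in Yme1l-/-. Yme1l1, the targeted gene, had 6327, 6292 and 5968 fragments in WT and 1327, 1963 and 2067 in Yme1l-/-, so that 20.7% of its WT level was left (log2 fold change -2.27 ± 0.05 (SE), edgeR adjusted p = 2.43e-11). Among 8 fibroblast markers, 7 were above 3 fragments in every library and Thy1 had between 0 and 6. Their summed level was 10800 to 11400 CPM (counts per 1e6 fragments of the scaled library) in WT and 6640 to 7130 CPM in Yme1l-/-. Col1a1 had a higher mean in Yme1l-/- (1620 CPM in WT and 2180 CPM in Yme1l-/-). All the other markers had lower means, such as Fn1 (4850 and 2430 CPM in the same order). The part of this difference in the results below was not tested. Marker lists of leukocytes, endothelium, epithelium, brown adipocytes and striated muscle summed to at most 3.92 CPM each in any library.

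The respiratory chain passes electrons from reduced cofactors to oxygen. Complex II (succinate dehydrogenase) feeds electrons from succinate into the quinone pool, complex III passes them to cytochrome c, and complex IV (cytochrome c oxidase, COX) passes them to oxygen, while complex V (ATP synthase) uses the proton gradient that complexes III and IV help to build. Most subunits are encoded in the nucleus and imported, a few are encoded in mitochondrial DNA, and YME1L is a protease of the inner membrane in which these complexes sit.

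A difference between genotypes was called where the quasi-likelihood test of edgeR, adjusted after Benjamini and Hochberg over the 13867 loci in the fit, gave an adjusted p under 0.05. This held for 32 of the 50 tested members, against 67.7% of all loci, and against 74.5% of the 7596 loci with a mean of at least 20 CPM. The share is near the background and is no result about the members. Of the 32, 21 were higher in Yme1l-/-, against 33.6% of all loci, and 11 were lower, against 34.1% of all loci. With upper-quartile scaling of the libraries these counts were 22 and 6. The median log2 fold change over the tested members was 0.080 (quartiles -0.13 and 0.49), beside -0.0041 (quartiles -0.37 and 0.41) over all loci.

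A change of at least 0.5 on the log2 scale that passed the test was found for 12 members in the upward direction, against 19.7% of all loci, and for 2 members in the downward direction, against 17.6% of all loci. Those 2 were Cox16 and Atp5e. With chromosome medians removed, as described further on, these counts were 4 (3 without Cox6a2) and 2. Those 2 were then Atp5e (-0.56) and Cox11 (-0.54), and Cox16 was at -0.34. Cox14 changed by at least 2-fold. Cox6a2 also did in the fit, but it had almost no fragments in WT and passed the filter only through the Yme1l-/- libraries, and without it 20 members were higher, 11 of them by at least 0.5. For 22 members every Yme1l-/- library exceeded every WT library, for 12 the order was the opposite, and for 16 the libraries of the genotypes overlapped. Of all loci, 71.9% had no overlap.

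**Figure D1:**
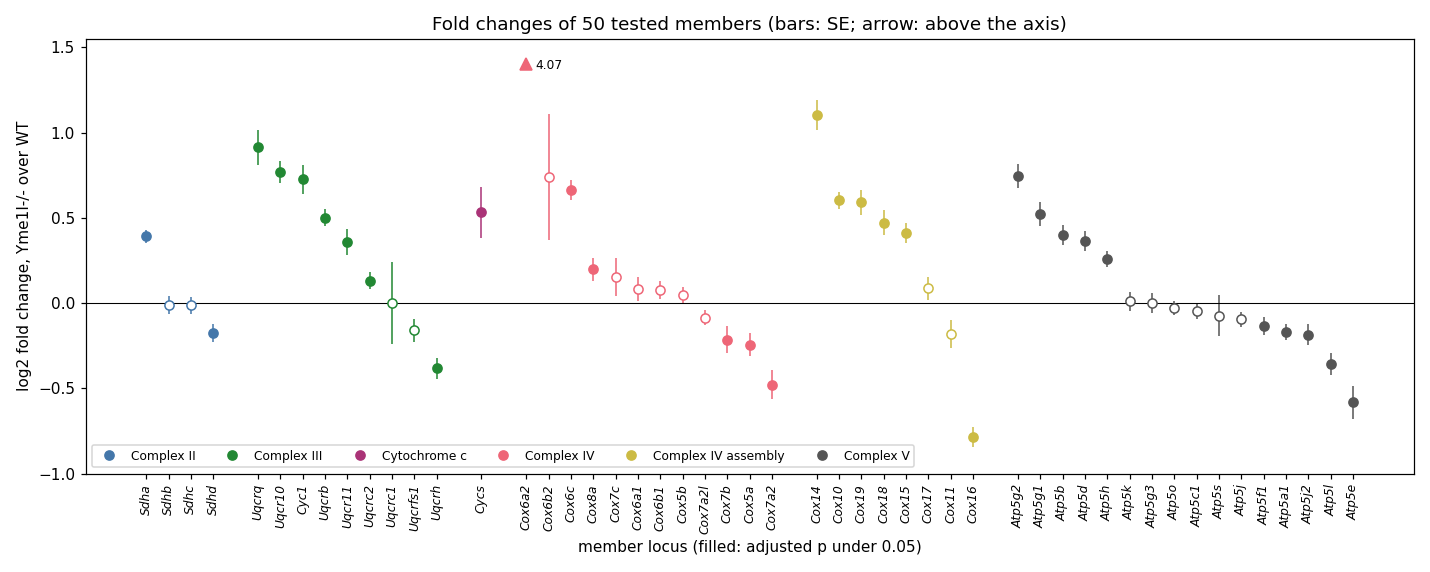
Log2 fold change (Yme1l-/- over WT, vertical axis) of the 50 tested members grouped by complex, with bars for the standard error and filled points for an adjusted p under 0.05. Points of complex III and of complex IV assembly lie mostly above 0, those of complex V spread to both sides, and Cox6a2, at 4.07, is drawn as an arrow above the axis.

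By complex, the calls were distributed as follows. Over all loci 33.6% were higher and 34.1% lower, and counts near these shares are no result about a complex. Complex III had 6 of 9 members higher and 1 lower (4 and 2 with chromosome medians removed), with a median log2 fold change of 0.36. The COX assembly members had 5 of 8 tested higher and 1 lower, with a median of 0.44. Complex IV subunits split into 3 higher and 3 lower of 12 tested (median 0.080). Without the tissue forms Cox6a2 and Cox6b2 these were 2 and 3 of 10 (1 and 1 with chromosome medians removed). Complex V subunits split into 5 higher and 5 lower of 15 (0 and 2 with chromosome medians removed), with a median of -0.03. Complex II had 1 member higher and 1 lower of 4 (3 and 0 with chromosome medians removed), with a median of -0.01. Differences between complexes were not tested.

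Promoters were examined for the motifs of 3 factors known to act at genes of the respiratory chain, NRF1 (GCATGCGC), GABPA (CCGGAAG) and YY1 (CAAGATGGC). RefSeq windows of 300 bases (GRCm38.p6, 250 bases before and 50 after the start) were found for 44 of the 56 protein-coding members, in 48 windows, and both strands were searched. The NRF1 letters stood in 8 of the 48 windows (16.7%) and in 2.71% of all 32851 windows. The GABPA letters stood in 18 (37.5%) and in 8.86% of all windows, and the YY1 letters in 3 (6.25%) and in 1.24%. Windows of members that rose held the GABPA letters in 6 of 15 cases, those of members that fell in 6 of 11, and the others in 6 of 22. Windows were counted and not genes. The 6 of members that fell include both windows of Cox16, whose locus is merged with other genes. For NRF1 the corresponding counts were 3 of 15, 1 of 11 and 4 of 22, and for YY1 they were 1 of 15, 2 of 11 and 0 of 22. A match is a description of letters and not a binding site.

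The 150 bases before the RefSeq start are shown for 4 members, a pair that rose and holds the NRF1 letters (Cycs and Atp5g2) and a pair that fell and holds the GABPA letters (Uqcrh and Atp5e), on the strand of the gene. These are picked examples and show no link of motif to direction. The GABPA letters also stood in members that rose, and the NRF1 letters in Atp5l, which fell. Capitals mark the motif, which for GABPA reads CTTCCGG on this strand. In Atp5g2 the NRF1 letters occur on both strands and overlap. The stretches lie at chr6:50566570-50566719 (minus strand), chr15:102671048-102671197 (minus strand), chr4:116075071-116075220 (minus strand) and chr2:174464102-174464251 (minus strand).
Cycs: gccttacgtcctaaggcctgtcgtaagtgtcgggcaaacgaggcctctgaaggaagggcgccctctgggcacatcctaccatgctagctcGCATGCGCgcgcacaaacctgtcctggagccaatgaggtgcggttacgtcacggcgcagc
Atp5g2: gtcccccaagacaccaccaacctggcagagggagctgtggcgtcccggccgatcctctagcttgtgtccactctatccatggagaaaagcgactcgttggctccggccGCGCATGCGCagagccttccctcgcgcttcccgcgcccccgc
Uqcrh: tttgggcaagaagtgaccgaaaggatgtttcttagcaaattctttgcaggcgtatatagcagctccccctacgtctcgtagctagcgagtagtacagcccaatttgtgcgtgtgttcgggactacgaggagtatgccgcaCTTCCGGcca
Atp5e: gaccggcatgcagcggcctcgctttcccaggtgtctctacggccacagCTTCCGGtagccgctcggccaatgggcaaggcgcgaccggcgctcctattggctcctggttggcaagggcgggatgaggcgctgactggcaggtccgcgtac

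Complex II is built from the flavoprotein SDHA, the iron-sulfur protein SDHB and the membrane anchors SDHC and SDHD. Sdha, which encodes the catalytic subunit (chromosome 13, 74322254 to 74350280, GRCm38), stood at 199, 199 and 205 CPM in WT and at 259, 265 and 266 CPM in Yme1l-/-. The genotypes were further apart than the spread within either, with means of 201.0 ± 3.52 CPM and 263.5 ± 3.55 CPM (SD, n = 3). The gene rose by 0.39 ± 0.04 on the log2 scale (SE, edgeR adjusted p = 4.55e-06). Sdhb and Sdhc had log2 fold changes of -0.01 ± 0.05 and -0.01 ± 0.05 (SE), and their libraries overlapped. Sdhd fell by 0.17 on the log2 scale (edgeR adjusted p = 0.0124), a call lost without Yme1l-/- 2 or Yme1l-/- 3 (adjusted p = 0.065 and 0.0583). The 4 genes of this enzyme, whose proteins are present in equal numbers, had 1 member up, 1 down and 2 without a call. With upper-quartile scaling none was lower, and with chromosome medians removed 3 were higher and none lower, Sdhd having turned to 0.19.

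In complex III, 6 of 9 subunit genes rose. Without WT 2, WT 3, Yme1l-/- 1 or Yme1l-/- 2 this was 5, and with chromosome medians removed 4. Uqcrq, which encodes a small subunit that sits beside cytochrome b (chromosome 11, 53427922 to 53430831), was measured at 76.7, 77.1 and 69.7 CPM in WT and at 165, 131 and 126 CPM in Yme1l-/-. The libraries did not overlap, and the log2 fold change was 0.91 ± 0.10 (SE, edgeR adjusted p = 5.25e-05). Uqcr10, another small subunit (chromosome 11, 4701973 to 4704342), stood at 55.1, 52.6 and 51.0 CPM in WT and at 99.6, 86.3 and 85.1 CPM in Yme1l-/-, with a log2 fold change of 0.77 ± 0.06 (SE, edgeR adjusted p = 1.1e-06). For both genes the culture numbered 1 was the highest of the Yme1l-/- cultures, as it was for most members.

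Cyc1, which encodes cytochrome c1, the subunit that hands electrons to cytochrome c (chromosome 15, 76343523 to 76346260), had 208, 190 and 180 CPM in WT and 362, 297 and 296 CPM in Yme1l-/-. With means of 192.5 ± 13.8 CPM and 318.3 ± 37.7 CPM (SD, n = 3), it rose by 0.73 ± 0.08 on the log2 scale (SE, edgeR adjusted p = 4.04e-05). Uqcrb, which encodes a quinone-binding subunit (chromosome 13, 66900617 to 66905378), had 51.7, 50.5 and 49.9 CPM in WT and 75.3, 68.2 and 72.0 CPM in Yme1l-/- (log2 fold change 0.50 ± 0.05, edgeR adjusted p = 4.24e-06). Uqcr11 rose by 0.36 ± 0.08, and Uqcrc2, a core subunit, by 0.13 ± 0.05 (SE, edgeR adjusted p = 0.00158 and 0.0358). The call for Uqcrc2 was lost, with an adjusted p of 0.0644 to 0.121, when any of 4 single cultures was left out (WT 2, WT 3, Yme1l-/- 1 or Yme1l-/- 2).

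Within the same complex, Uqcrfs1 and Uqcrh had lower means in Yme1l-/-. Uqcrfs1, the Rieske iron-sulfur protein, had 92.9, 86.8 and 76.0 CPM in WT and 79.8, 74.4 and 74.7 CPM in Yme1l-/-. These libraries overlapped, and the difference did not pass the test (log2 fold change -0.16 ± 0.07, edgeR adjusted p = 0.0586). It was called lower by DESeq2 (adjusted p = 0.0476), with no filter (0.0136), with chromosome medians removed (0.01), without WT 3 (0.00371) and without Yme1l-/- 1 (0.0418). Uqcrh, the hinge protein at the contact with cytochrome c1 (chromosome 4, 116066965 to 116075071), had 90.9, 90.4 and 81.5 CPM in WT and 72.0, 63.0 and 66.6 CPM in Yme1l-/-. It fell by 0.38 on the log2 scale (SE 0.06, edgeR adjusted p = 1.98e-04), while the gene of its partner Cyc1 rose.

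Uqcrc1, which encodes the other core subunit, had very few fragments. It averaged 0.75 ± 0.15 CPM over the WT cultures and 0.75 ± 0.04 CPM over the Yme1l-/- cultures (SD, n = 3), and the authors' FPKM values (fragments per kilobase of transcript and 1e6 fragments, 1 combined value per genotype) were 0.681 and 0.999. By the same measure every other tested gene for a subunit or cytochrome c, apart from the tissue forms Cox6a2 and Cox6b2, had at least 53.3 in WT. The log2 fold change of Uqcrc1 was 0.00 ± 0.24 (SE), and the low level was seen in all 6 libraries. Whether fragments of this gene were assigned to another assembled locus was not tested, so its level is uncertain.

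Cytochrome c, the carrier between complexes III and IV, is encoded by Cycs (chromosome 6, 50562563 to 50566538). Its level was 153, 219 and 175 CPM in WT and 293, 245 and 253 CPM in Yme1l-/-. WT culture 2 came near the Yme1l-/- libraries but stayed below them. The log2 fold change was 0.53 ± 0.15 (SE, edgeR adjusted p = 0.0201). The call was lost without WT culture 3 (adjusted p = 0.0675), without Yme1l-/- culture 1 (0.111), with no filter beyond a total of 1 count (0.0758) and with chromosome medians removed (0.309).

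**Figure D2:**
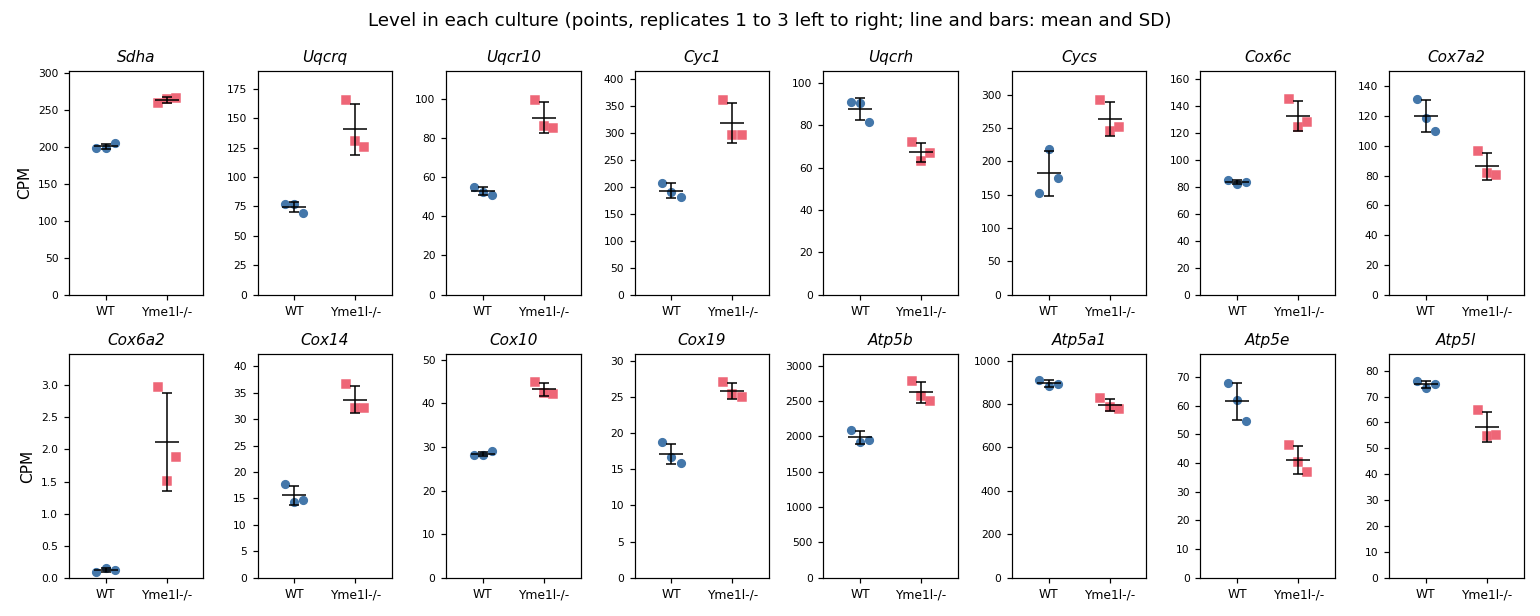
Level (vertical axis, CPM from 0) of 16 members in each culture, with circles for WT, squares for Yme1l-/-, and lines and bars for the mean and SD of 3 cultures. The libraries of the genotypes stand apart in each panel, by 0.39 on the log2 scale for Sdha and by -0.17 for Atp5a1, and the WT cultures of Cycs spread from 153 to 219 CPM.

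Complex IV subunits did not move together. Cox6c, a small subunit of the membrane part (chromosome 15, 35925886 to 35938246), had 85.5, 82.1 and 84.0 CPM in WT and 145, 124 and 129 CPM in Yme1l-/-. This was a log2 fold change of 0.66 ± 0.06 (SE, edgeR adjusted p = 1.92e-06) with no overlap between libraries. Cox8a, another small membrane subunit and the second of these genes by the authors' FPKM (432 in WT), rose by 0.20 ± 0.07 (SE, edgeR adjusted p = 0.0255). This call was lost without WT 2, WT 3 or Yme1l-/- 1, with an adjusted p of 0.0599 to 0.0945.

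Cox7a2, Cox5a and Cox7b fell. Cox7a2 (chromosome 9, 79755361 to 79759878), the form of subunit 7a found in most tissues, had 132, 119 and 110.1 CPM in WT and 96.7, 81.9 and 80.5 CPM in Yme1l-/-, and fell by 0.48 on the log2 scale (SE 0.08, edgeR adjusted p = 5.46e-04). Cox5a fell by 0.24 and Cox7b by 0.22 (edgeR adjusted p = 0.0065 and 0.0346). The Cox7b call was lost without WT 1, Yme1l-/- 2 or Yme1l-/- 3, with an adjusted p of 0.104 to 0.13. With chromosome medians removed the calls of Cox6c, Cox8a, Cox7a2, Cox5a and Cox7b were all lost, at 0.07, 0.08, -0.12, 0.12 and -0.01. The remaining widely expressed subunits had no call: Cox7c at 0.15 ± 0.11, Cox6a1 at 0.08 ± 0.07, Cox6b1 at 0.08 ± 0.05 and Cox5b at 0.05 ± 0.05 (log2 fold change ± SE). Cox7a2l, a factor that joins complexes III and IV into supercomplexes, was at -0.08 ± 0.05.

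Several complex IV positions have a second gene used in heart and skeletal muscle, testis or lung. Of these, Cox7b2, Cox8b and Cox8c had no fragment in any library, Cox4i2 had 1 fragment in 1 library, and Cox7a1 had between 1 and 5 fragments. Cox6a2, the heart and muscle form of subunit 6a (chromosome 7, 128205435 to 128206387), was the exception. It had 3, 5 and 4 fragments in WT and 104, 76 and 96 in Yme1l-/-, which averaged 0.12 ± 0.03 and 2.12 ± 0.76 CPM (SD, n = 3). The WT counts lie near the floor of 3 fragments, and the gene passed the filter only through the Yme1l-/- libraries, so its fitted log2 fold change of 4.07 is given as a description with no test.

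At this level Cox6a2 remained a minor form beside Cox6a1, the form found in most tissues. The log2 ratio of Cox6a2 to Cox6a1 CPM was -10.9, -9.95 and -10.3 in the WT cultures and -5.97, -6.76 and -6.44 in the Yme1l-/- cultures. The WT ratios rest on 3 to 5 fragments of Cox6a2 and are given as a description. The gene lies within the span of Itgad on the opposite strand, and Itgad had 1 fragment over all 6 libraries. Of the striated muscle markers, Ckm, Actn2 and Myog were at or under 3 fragments in every library, Myh7 had at most 8, and Tnnt2 had 30 to 157. Tnnt2 averaged 1.53 CPM in WT and 2.81 CPM in Yme1l-/-, and the 5 muscle markers summed to 0.918 to 2.26 CPM in WT libraries and to 2.55 to 3.17 CPM in Yme1l-/- libraries. Their part in the Cox6a2 difference was not tested. Cox6b2, the testis form of subunit 6b, had 9, 5 and 10 fragments in WT and 13, 18 and 25 in Yme1l-/-, and its log2 fold change of 0.74 ± 0.37 (SE) did not pass the test (edgeR adjusted p = 0.0996).

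The Cox-named assembly factors build complex IV without being part of it. Cox14, which takes part in the early assembly of the COX1 subunit (chromosome 15, 99725618 to 99728136), had 17.7, 14.4 and 14.8 CPM in WT and 36.6, 32.2 and 32.2 CPM in Yme1l-/-. This was a log2 fold change of 1.10 ± 0.09 (SE, edgeR adjusted p = 6.83e-07). Cox10 and Cox15 make the haem group of the enzyme in consecutive steps. Cox10 (chromosome 11, 63962627 to 64079468) had 28.1, 28.2 and 29.0 CPM in WT and 45.0, 42.4 and 42.2 CPM in Yme1l-/- (log2 fold change 0.60 ± 0.05, edgeR adjusted p = 1.22e-06). Cox15 rose by 0.41 ± 0.06 (edgeR adjusted p = 8.04e-05).

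Cox19, Cox17 and Cox11 act in the delivery of copper to the enzyme, and only Cox19 among them had a call. Cox19 (chromosome 5, 139336189 to 139351418) had 18.7, 16.7 and 15.9 CPM in WT and 27.0, 25.4 and 24.95 CPM in Yme1l-/- (log2 fold change 0.59 ± 0.07, edgeR adjusted p = 2.52e-05). Cox17, on a locus merged by the authors with Popdc2 and Gm21987, was at 0.09 ± 0.07. Cox11 was at -0.18 ± 0.08 (edgeR adjusted p = 0.074), with all Yme1l-/- libraries below all WT libraries. Cox18, which inserts part of the COX2 subunit into the membrane, rose by 0.47 ± 0.07 (edgeR adjusted p = 1.31e-04).

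The locus of Cox16 (chromosome 12, 81359026 to 81485127) fell. This locus, merged by the authors with Synj2bp and Gm20498, had 70.3, 78.6 and 72.5 CPM in WT and 45.6, 41.0 and 42.1 CPM in Yme1l-/-, a log2 fold change of -0.78 ± 0.06 (SE, edgeR adjusted p = 4.25e-07). The fragments of a merged locus cannot be divided among its genes, so the fall cannot be assigned to Cox16. With chromosome medians removed it was at -0.34. Cox20 was under the filter, with 1, 3 and 1 fragments in WT and 0, 57 and 28 in Yme1l-/-, so that the cultures of 1 genotype differed from none to 57.

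Of the 15 ATP synthase subunit genes, 5 were higher and 5 lower. With upper-quartile scaling these were 5 and 2, and with chromosome medians removed 0 and 2. Atp5b, the catalytic beta subunit (chromosome 10, 128083273 to 128090391), was the highest member by the authors' FPKM, at 1130 in WT and 1487 in Yme1l-/-. By culture it stood at 2091, 1920.2 and 1954 CPM in WT and at 2784, 2576 and 2509 CPM in Yme1l-/-, a log2 fold change of 0.40 ± 0.06 (SE, edgeR adjusted p = 8.58e-05). Atp5a1, which encodes the alpha subunit that alternates with beta in the same ring (chromosome 18, 77773729 to 77782869), had 913, 882 and 892 CPM in WT and 827, 787 and 775 CPM in Yme1l-/-. It fell by 0.17 on the log2 scale (SE 0.05, edgeR adjusted p = 0.00928). For both genes the libraries did not overlap, in opposite directions. With chromosome medians removed both calls were lost, at 0.10 for Atp5b and 0.03 for Atp5a1. The Atp5a1 call was also lost with upper-quartile scaling (edgeR adjusted p = 0.0656).

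The central stalk of the F1 part joins the gamma, delta and epsilon subunits. Atp5c1 (gamma) was at -0.05 ± 0.05 with overlapping libraries, Atp5d (delta) rose by 0.36 ± 0.06 (edgeR adjusted p = 1.96e-04), and Atp5e (epsilon, chromosome 2, 174461072 to 174464105) fell. Atp5e had 67.9, 61.8 and 54.7 CPM in WT and 46.2, 40.3 and 36.8 CPM in Yme1l-/-, a log2 fold change of -0.58 ± 0.10 (SE, edgeR adjusted p = 4.83e-04). Among the members ranked by the authors' FPKM, Atp5e moved from rank 11 in WT to rank 25 in Yme1l-/-, while Uqcrq moved from rank 20 to rank 6.

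In the peripheral stalk and the membrane part, Atp5h (subunit d) rose by 0.26 ± 0.05, and Atp5l (subunit g), Atp5j2 (subunit f) and Atp5f1 (subunit b) fell by 0.36, 0.19 and 0.14 on the log2 scale (edgeR adjusted p = 4.83e-04, 4.8e-04, 0.0194 and 0.0378). The Atp5f1 call was lost without any 1 culture other than Yme1l-/- 1 (adjusted p 0.0694 to 0.164), and that of Atp5j2 without WT 1, Yme1l-/- 2 or Yme1l-/- 3 (0.0674 to 0.0925). Atp5k (subunit e), Atp5o (OSCP, on a locus merged with Donson), Atp5j (subunit F6) and the coupling factor Atp5s, which was not counted among the subunits, had no call, with log2 fold changes between -0.10 and 0.01.

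Subunit c, the rotor ring protein, is encoded by 3 genes whose mature proteins are the same. Atp5g1 (chromosome 11, 96068852 to 96075670) had 86.8, 74.2 and 76.8 CPM in WT and 124, 109 and 109 CPM in Yme1l-/- (log2 fold change 0.52 ± 0.07, edgeR adjusted p = 4.53e-05). Atp5g2 (chromosome 15, 102662864 to 102672352) had 130.1, 120.1 and 116 CPM in WT and 227, 188 and 199 CPM in Yme1l-/- (log2 fold change 0.74 ± 0.07, edgeR adjusted p = 3.79e-06). Atp5g3 (chromosome 2, 73908447 to 73911326) had 241, 223 and 213 CPM in WT and 243, 218 and 217 CPM in Yme1l-/-, so that its libraries overlapped (log2 fold change 0.00 ± 0.06).

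Ratios among these genes, taken without removal of chromosome medians, did not overlap between genotypes. With those medians removed, the log2 fold changes of Atp5g1, Atp5g2 and Atp5g3 were 0.16, 0.15 and 0.02, none with a call. The log2 ratio of Atp5g2 to Atp5g3 was -0.89 ± 0.01 in WT and -0.15 ± 0.06 in Yme1l-/- (SD, n = 3, exact two-sided permutation test p = 0.1, the smallest that 3 against 3 cultures can give). That of Atp5g1 to Atp5g3 was -1.51 ± 0.07 in WT and -0.99 ± 0.01 in Yme1l-/- (SD, n = 3, exact permutation test p = 0.1). Of 7 isoform pairs planned, 4 had both members past the filter, and after Benjamini-Hochberg adjustment over these 4 both p-values were 0.1. By the authors' FPKM, Atp5g3 made up 51.6% of the subunit c transcripts in WT and 40.6% in Yme1l-/-, and Atp5g2 27.4% and 36.1%, while the sum of the 3 was 800.3 and 1016.

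**Figure D3:**
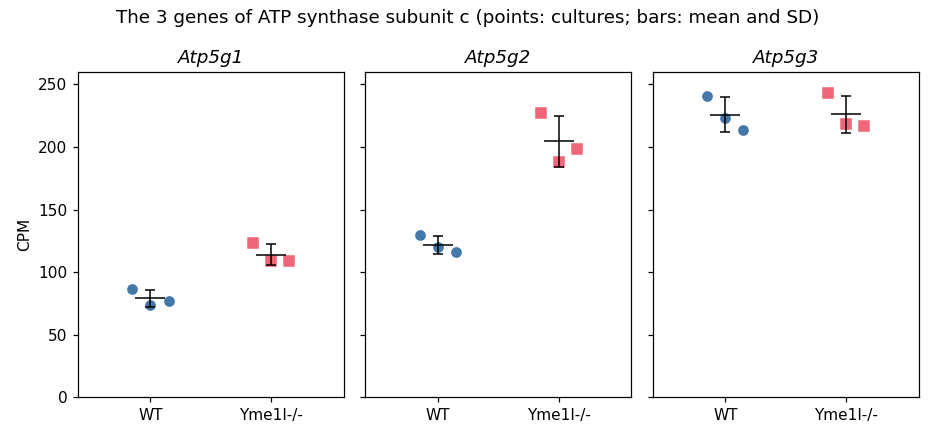
Level (vertical axis, CPM from 0) of the 3 genes for ATP synthase subunit c in each culture, with bars for the mean and SD of 3 cultures. Atp5g1 and Atp5g2 stand higher in all Yme1l-/- cultures (squares), and Atp5g3 lies between 213 and 243 CPM in both genotypes.

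Summed over its genes, complex III averaged 744.8 ± 41.9 CPM over the WT and 999.3 ± 91.5 CPM over the Yme1l-/- cultures (SD, n = 3), a ratio of 1.34. Corresponding ratios were 1.10 for complex II, 1.02 for complex IV subunits and 1.14 for complex V. Without Atp5b the complex V sum was 2681 ± 80.3 CPM in the WT cultures and 2679 ± 140.3 CPM in the Yme1l-/- cultures (SD, n = 3), a ratio of 0.999. These sums weight long and abundant transcripts more and were not tested.

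Members tended to move in the direction of the other genes of their chromosomes. On the 4 chromosomes where the median log2 fold change of the loci that are no members was over 0.2 (15, 11, 6 and 10), 13 of 14 tested members were higher and none was lower, beside 62.8% higher and 14.2% lower among the other loci there. On the 4 chromosomes where it was under -0.2 (12, 9, X and 18), 7 of 9 were lower and none was higher, beside 57.6% lower and 13.3% higher among the other loci. On the 10 chromosomes between, 8 of 27 were higher, Cox6a2 among them, and 4 lower, beside 30.2% and 32.5% of the other loci. Chromosome 15 had the highest such median, 0.59, and its 4 tested members, Cyc1, Cox14, Cox6c and Atp5g2, were all higher, by 0.66 to 1.10.

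Over the 50 tested members, the log2 fold change and the median of the other loci of the chromosome had a Spearman correlation of 0.73 and a Pearson correlation of 0.424. Without Cox6a2 these were 0.76 and 0.766. Members of a chromosome share that median and are not independent, so no p is given. Whether the chromosome pattern goes with clone or with genotype cannot be told apart.

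**Figure D4:**
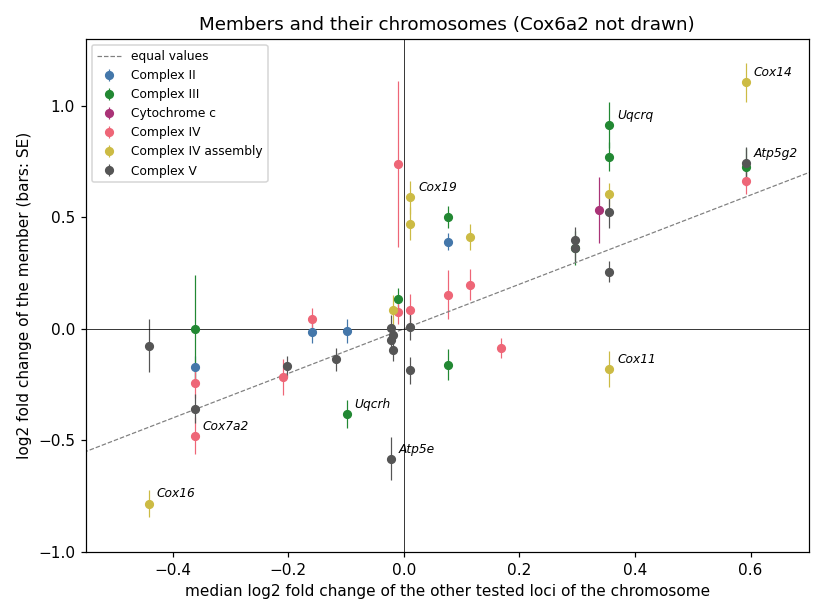
Log2 fold change of 49 tested members (vertical axis, bars: standard error) against the median log2 fold change of the other tested loci on the same chromosome (horizontal axis), with a dashed line for equal values. Points rise from lower left to upper right, with Cox14 and Atp5g2 at a chromosome median of 0.59, and Cox11 and Atp5e lie well below the line.

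When each chromosome's median was removed before the fit, 15 members (14 without Cox6a2) were higher, against 31.1% of all loci in that fit. A further 7 were lower, against 31.7%. The share of higher members is near that background. Sdha (0.31), Uqcrq (0.56), Uqcr10 (0.41), Uqcrb (0.42), Cox14 (0.51), Cox10 (0.25), Cox19 (0.58), Cox18 (0.46), Cox15 (0.30), Uqcrc2 (0.14) and Cox6a2 (4.08) were still higher, and Uqcrh (-0.28), Cox16 (-0.34), Atp5e (-0.56) and Atp5j2 (-0.20) were still lower. In all, 11 of the 21 higher calls (10 of 20 without Cox6a2) and 4 of the 11 lower calls were kept, and 16 calls were lost. Those lost were Cyc1 (0.13), Cox6c (0.07), Cycs (0.19), Uqcr11 (0.06), Cox8a (0.08), Atp5g2 (0.15), Atp5g1 (0.16), Atp5b (0.10), Atp5d (0.06) and Atp5h (-0.10) of the higher genes, and Cox7a2 (-0.12), Cox5a (0.12), Cox7b (-0.01), Atp5f1 (-0.02), Atp5a1 (0.03) and Atp5l (0.00) of the lower ones. Sdhd turned from lower to higher (0.19, edgeR adjusted p = 0.00924). A further 6 members gained a call, Cox5b (0.20), Sdhc (0.14) and Atp5s (0.37) as higher and Cox11 (-0.54), Uqcrfs1 (-0.24) and Cox7a2l (-0.25) as lower.

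The culture numbered 1 tended to give the highest value in both genotypes. It was the highest of the WT cultures for 38 of the 50 tested members (76%, against 33.7% of all loci) and the highest of the Yme1l-/- cultures for 42 (84%, against 38.4%). Member transcripts were short, with a median of 713.5 bases beside 2243 over all loci with a length. Over all loci, the Spearman correlation of transcript length with the log2 difference between culture 1 and the other two was -0.25 in WT and -0.32 in Yme1l-/-. The part of transcript length in the members' values was not tested. Without Yme1l-/- culture 1, 18 of the same 50 members were higher and 13 lower.

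Further assembly factors, which do not carry the symbols of the rule, were taken from a list of 33 genes, of which 32 were tested. Of these, 16 were higher (background 33.6%) and 7 lower (34.1%), with a median log2 fold change of 0.16. The 7 include Smim20, which passed the filter only through the WT libraries. The 23 calls in all compare with 67.7% of all loci. The locus of Sco2, a copper chaperone of complex IV, is merged with Tymp. This locus averaged 17.5 ± 0.88 CPM over the WT and 31.0 ± 4.05 CPM over the Yme1l-/- cultures (SD, n = 3). It rose by 0.82 ± 0.09 on the log2 scale (SE, edgeR adjusted p = 9.76e-06), and the rise cannot be assigned to Sco2. Taco1, a translation activator of COX1, was 0.78 ± 0.09 higher on the log2 scale (edgeR adjusted p = 8.8e-06).

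Smim20 and Higd1a were the lowest of that list. Smim20, which encodes a COX1 assembly factor, had 268, 265 and 278 fragments in WT and none in any Yme1l-/- library, which was at least 96.1-fold lower against a floor of 3 fragments per library. The gene passed the filter only through the WT libraries, so this is given as a description. Whether its fragments were assigned to another assembled locus in Yme1l-/- was not tested. Higd1a, a small inner membrane protein linked to the respiratory chain, fell by 0.52 on the log2 scale (edgeR adjusted p = 2.61e-05).

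Of subunits that the symbol rule did not cover, Ndufa4, now counted to complex IV, rose by 0.31 ± 0.06 (edgeR adjusted p = 0.00105). The ATP synthase associated 2010107E04Rik fell by 0.42 on the log2 scale (edgeR adjusted p = 2.41e-04), and Usmg5 was at -0.15 ± 0.12. Among the partner subunits encoded in mitochondrial DNA, mt-Cytb was at 0.04 ± 0.06 and mt-Co1 at 0.29 ± 0.11 (edgeR adjusted p = 0.0371, with overlapping libraries). mt-Co2 ranged from 7.47 to 3664 CPM among the WT cultures, and from 164 to 834 CPM among the Yme1l-/- cultures, so that its log2 fold change of -1.40 ± 2.18 (SE) had no call. The merged locus of mt-Atp6, mt-Atp8 and mt-Co3 varied in the same way. It ranged from 6.06 to 6958 CPM in WT and from 314 to 1804 CPM in Yme1l-/- (log2 fold change -1.27 ± 2.32, no call).

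Among 10 regulators linked to genes of the respiratory chain, 9 were tested, 1 was higher and 4 were lower, against 33.6% and 34.1% of all loci. Yy1 averaged 196.5 ± 12.7 CPM over the WT and 106.2 ± 1.01 CPM over the Yme1l-/- cultures (SD, n = 3), at -0.89 ± 0.05 on the log2 scale (SE, edgeR adjusted p = 5.35e-08). The locus of Hif1a, merged with Snapc1 and AC124712.1, fell by 0.53 on the log2 scale (edgeR adjusted p = 9.59e-06). This fall cannot be assigned to Hif1a. Ppargc1b, a coactivator of mitochondrial genes, averaged 0.86 ± 0.05 and 1.78 ± 0.11 CPM in the same order (SD, n = 3) and rose by 1.05 ± 0.19 on the log2 scale (edgeR adjusted p = 3.94e-04). Gabpa fell by 0.14 (edgeR adjusted p = 0.0171), and Nrf1 was at -0.08 ± 0.04 without a call.

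Beside these members, and against 33.6% higher and 34.1% lower over all loci, complex I subunits gave 22 higher and 3 lower of 34 tested (median log2 fold change 0.26), and mitochondrial ribosomal proteins gave 55 higher and 8 lower of 77 (median 0.26). The members, at 21 higher and 11 lower of 50 with a median of 0.080, had a lower share of higher calls in these counts. The difference between the lists was not tested.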

How the data were processed

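The authors mapped stranded read pairs to mm10 with HISAT2 2.0.4, assembled transcripts with StringTie 1.3.3 and compared genotypes with the Cufflinks tools (Cuffdiff 2.2.1), names as in the submitters' processing notes. The deposited count table holds raw fragment counts per assembled locus. The treatment of multi-mapping fragments is not given in the sources used here. The authors' FPKM table holds 1 combined value per genotype and was used for levels, ranks and shares per length, with no test. Its fold changes, p-values and q-values are the authors' own comparison and were not used.

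The genotypes were compared with edgeR 4.0.16 under R 4.3.3 (filterByExpr with a minimum count of 10, TMM scaling, robust glmQLFit, glmQLFTest, no covariates). Adjusted p-values are Benjamini-Hochberg values over all 13867 loci, and each SE comes from the fold change and its test statistic. The test was checked on simulated counts with the mean levels and library sizes of these data and the same spread for every locus. Of loci simulated with an absolute log2 fold change of 0.5, 76% were called, and of those with 1, 94.9%. Of unchanged loci 0.0593% were called. The simulation changed far fewer loci than were called in the real data. CPM use the TMM-scaled library size. Bounds cover counting error only, since PCR copies were not identified. Gene positions are from GENCODE M21 (GRCm38) and promoter windows from RefSeq. Isoform ratios are log2 ratios of CPM. Culture deviations used log2 CPM with an offset of 0.125.

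Members, lists, motifs and tests were chosen with earlier results of these data known. Values by culture are given for members that passed the test with an absolute log2 fold change of at least 0.5, for isoform pairs and for the catalytic and electron-carrying subunits, beside further members named for comparison. From the lists of assembly factors and regulators the highest and lowest calls are named, and complex I and ribosomal proteins are given as counts. Pseudogene symbols ending in -ps (2 loci) were left out. Alternatives were RLE and upper-quartile scaling, DESeq2 1.42.0, other filters, the replicate number as a block, each culture left out, chromosome medians removed, and merged loci (3 members) left out.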

Additional observations from a re-analysis of the deposited data

How the results depend on the processing

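With RLE scaling, DESeq2, both other filters and without merged loci, 20 or 21 members were higher and 10 to 12 lower, and the median log2 fold change lay between 0.065 and 0.11. Upper-quartile scaling gave 22 higher and 6 lower and raised the median of all loci from -0.0041 to 0.055, and the calls of Sdhd, Cox7b, Atp5f1, Atp5a1 and Atp5j2, all lower, were lost. Removal of chromosome medians gave 15 higher (14 without Cox6a2) and 7 lower. It turned the sign of 10 members. For 7 of them a call stood in either fit, at 0.14 for Sdhc, 0.19 for Sdhd, 0.12 for Cox5a, -0.10 for Atp5h, 0.37 for Atp5s, 0.029 for Atp5a1 and 0.00082 for Atp5l, and Sdhb, Uqcrc1 and Atp5k had a call in neither. Leaving out each culture in turn gave, of 50 or 51 members tested, 18 to 21 higher and 7 to 13 lower, with medians from 0.035 to 0.10. The lower count was 7 without Yme1l-/- replicate 2 and also without Yme1l-/- replicate 3, and the cause was not tested. Of 648 values by member and alternative, 560 kept the sign and the side of the threshold, 28 changed sign with a call in neither fit (5 of them with upper-quartile scaling), 45 lost the call, 14 gained it and 1, Sdhd, turned from lower to higher.

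With the replicate number as a block, 21 members were higher and 12 lower. Cycs lost its call (adjusted p = 0.151), and Cox7c (higher, 0.0115) and Uqcrfs1 (lower, 0.0103) gained one. Over all loci, cultures with the same number deviated together only weakly (Pearson correlations of 0.163, -0.11 and 0.049). For most members, however, culture 1 was the highest in each genotype (76% in WT and 84% in Yme1l-/-). Whether the numbers pair the cultures was not tested further and is not known. Members with few fragments (Uqcrc1, Cox6a2, Cox6b2) have the widest standard errors among the members, at 0.24 to 0.38.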
